A study of Lactuca sativa with 12 samples.

Results

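The comparison described here sets leaves of cadmium-treated lettuce (Lactuca sativa, the Red oak-leaf cultivar) against leaves of untreated plants, over all 1119 genes that the authors' table for this pair of groups lists. Those 1119 genes are part of 2264 genes listed in the 6 pairwise tables of the series. The Cd group was grown hydroponically and received cadmium at 10 mg/L, and the CK group was grown the same way with no treatment. The labels name both the metal and its hydrated chloride salt at this dose, which leaves the ion concentration unknown. Exposure started with seedlings of 4 weeks, and whole leaves were taken at the stage of 6 leaves, at about 1.5 months. Each group has 3 libraries of poly(A)-selected RNA, called biological replicates by the submitters, and all 12 libraries of the series carry 1 batch label. A second pair of groups in the series also differs in cadmium alone: CdSeNP received cadmium and selenium nanoparticles (3 mg/L), and SeNP received the nanoparticles without cadmium. That pair shares no library with Cd and CK and is used below as a separate comparison. No single gene was the target of the treatment, so the labels cannot be checked against 1 transcript.

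Cadmium is a toxic metal with no known role in lettuce. It can enter plant cells through carriers of iron, zinc and calcium, and it disturbs iron balance, photosynthesis and growth. A leaf grows first by cell division and then by cell expansion, while its epidermis lays down a cuticle of cutin and wax and its mesophyll builds chloroplast membranes rich in unsaturated galactolipids. Transcripts of DNA replication and mitosis mark cells that still divide, whereas transcripts of light harvesting mark differentiated mesophyll. In whole leaves, fewer cells of a type and less RNA per cell cannot be told apart.

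Sequencing depth, recovered from the deposited counts and FPKM (fragments per kilobase of transcript and M reads), was 28.9 to 31.4 M reads in Cd and 26.7 to 27.2 M reads in CK. One control stood apart. The place of CK 2 was computed for each gene as its distance from the mean of CK 1 and CK 3, divided by the distance of the Cd mean from them, on the log2(CPM + 0.5) scale (CPM, counts per M reads). A place of 0 is the level of the other controls and a place of 1 is the Cd mean. The libraries numbered 2 in both groups deviated together: CK 2 was the highest control in 660 of the 799 higher genes, and Cd 2 was also the highest Cd library in 537 of these 660.

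The authors' DESeq2 calls (a change of over 2-fold at an adjusted p below 0.05) gave 799 genes higher and 320 genes lower in Cd than in CK. Of 23049 genes tested, 3.47% were called higher, 1.39% lower and 4.85% either way, and these shares are the background for the counts below. The median log2 fold change in the authors' deposited table was 1.38 among the higher genes and -1.25 among the lower genes. Changes of at least 4-fold were mostly increases, with 160 genes higher and 24 lower, and 53 genes were higher and 5 lower by at least 8-fold. Levels were modest: the mean FPKM in the higher of the 2 groups had a median of 3.46 (quartiles 1.61 and 10.6), and 447 genes reached 5 FPKM. The 3 Cd libraries and the 3 CK libraries did not overlap in FPKM at 1102 genes and overlapped at 17, of which 4 were higher and 13 lower. For a single gene, exact permutation of 6 libraries has 0.1 as its smallest p, so the adjusted p-values given are those of the authors' fit. The table holds called genes only. How many members of each gene list below were tested and not called is therefore not known here, and the counts of a list are read beside the 799 and 320 of the whole table.

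The median place of CK 2 was 0.403 over all 1119 genes (quartiles 0.166 and 0.590). It was 0.466 over the higher genes and 0.273 over the lower genes. Placed in the same way by the other controls, CK 1 had a median of -0.266 and CK 3 of -0.232. CK 2 lay nearer to the Cd mean than to the other controls (a place over 0.5) at 415 genes, or 37.1%, and these were 358 higher and 57 lower genes. CK 1 did so at 10 genes and CK 3 at 2. The Cd mean was at least 2-fold away from the mean of CK 1 and CK 3 at 932 genes and at least 2-fold away from CK 2 at 337 genes. Single genes reached both extremes. Syntaxin-121 (LOC111898570), a membrane fusion protein of secretion, had 4.98, 3.58 and 4.404 FPKM in Cd 1 to Cd 3, against 8.87, 4.17 and 11.5 FPKM in CK 1 to CK 3, with CK 2 inside the Cd range (place 1.03). Ethylene-responsive transcription factor 1A (LOC111905116) had 5.21, 4.92 and 5.04 FPKM in Cd 1 to Cd 3, against 10.5, 5.04 and 12.4 FPKM in CK 1 to CK 3, and CK 2 again lay among the Cd libraries (place 1.00). Aldo-keto reductase 2 (LOC111887859) went the other way, with 3.97, 3.78 and 3.89 FPKM in Cd 1 to Cd 3, against 6.32, 15.9 and 7.21 FPKM in CK 1 to CK 3 and a place of -1.59, so that CK 2 was the library farthest from Cd. With the replicate number as a block, the edgeR log2 fold change was -0.94 for LOC111898570 and -0.91 for LOC111905116, below the limit of 1 in size, so neither call held.

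**Figure D1:**
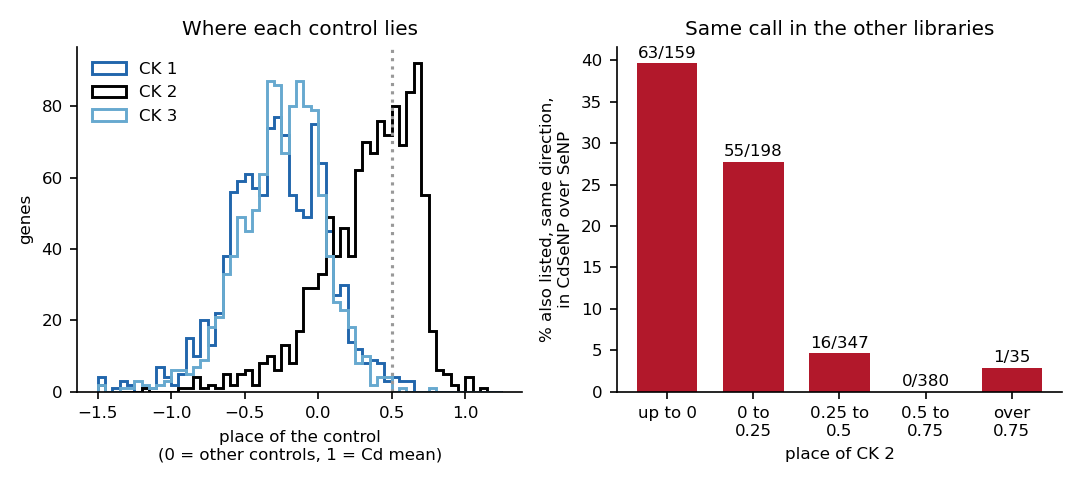
The left panel counts genes (y axis) by the place of each control on the scale where 0 is the mean of the other 2 controls and 1 is the Cd mean (x axis); values beyond the axis are drawn at its ends. The right panel covers 5 ranges of the place of CK 2. It gives the percentage of genes also listed in the same direction in CdSeNP over SeNP. The counts above each bar include 63 of 159 genes at places up to 0, and 0 of 380 between 0.5 and 0.75. The place also depends on the size of the Cd change, which was not held fixed.

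The gene lists divided by how they treated CK 2. DNA replication, histones, mitosis, epidermal fate and the receptor-like kinases that rose had a CK 2 well above the other controls. Metal transport, MYB and bHLH factors that rose, and photosynthesis had a CK 2 close to them. The plot of list medians by library shows both kinds.

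**Figure D2:**
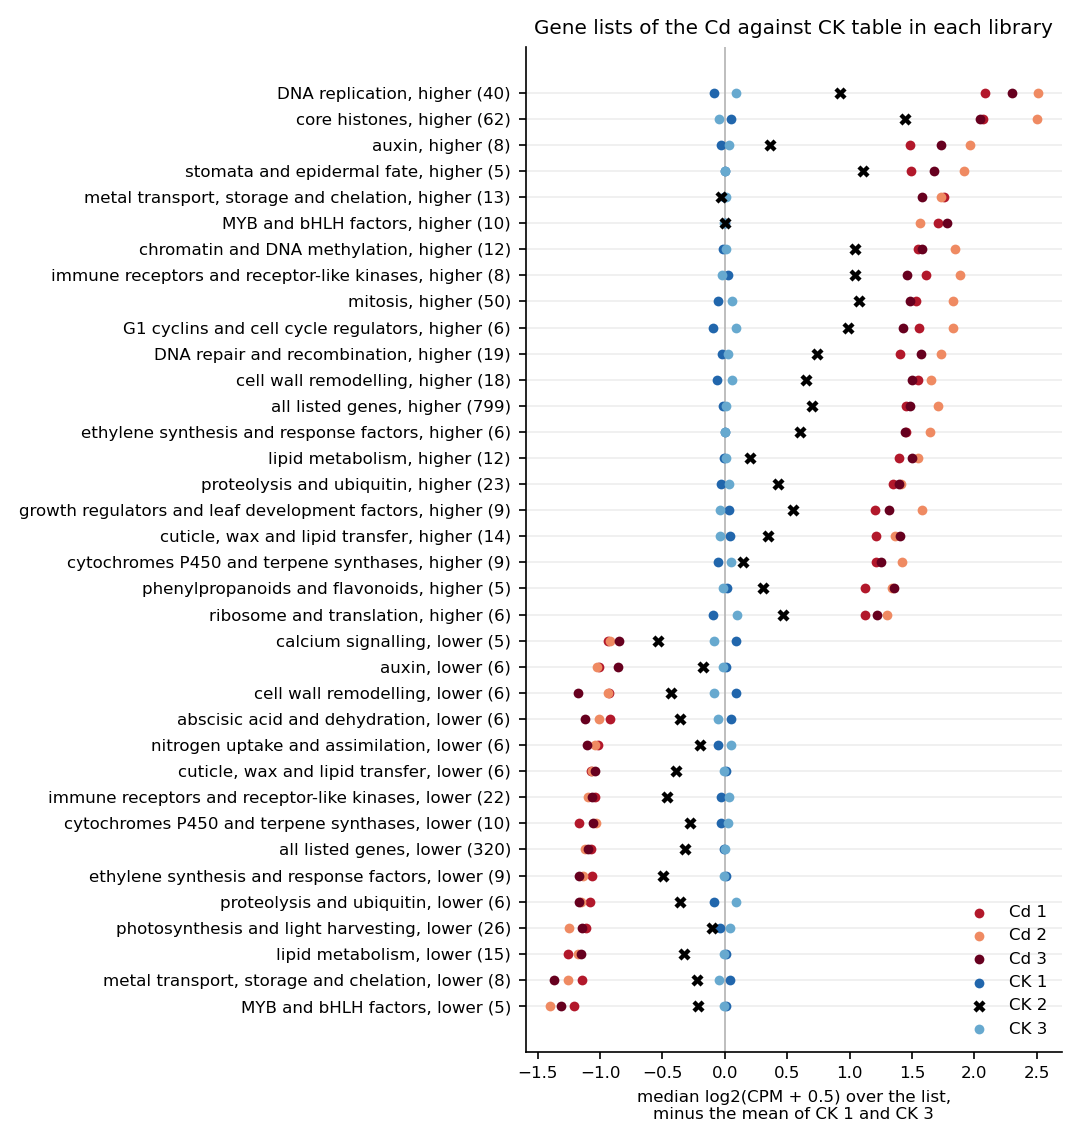
For each list with at least 5 genes in 1 direction (rows, with the number of genes), each point is 1 library's median over the genes of log2(CPM + 0.5) minus the mean of CK 1 and CK 3 (x axis); red shades are Cd 1 to Cd 3, blue shades CK 1 and CK 3, and the black cross CK 2. Among the higher core histones CK 2 lay at 1.44 and the Cd libraries between 2.05 and 2.50, whereas among the 26 lower photosynthesis genes CK 2 lay at -0.10.

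Genes of cell division were the most numerous group in the lists examined: 185 of the 799 higher genes and 1 of the 320 lower genes fell into 6 lists (DNA replication, core histones, mitosis, G1 regulators, DNA repair and chromatin). Their median log2 fold change in the authors' deposited table was 1.43, beside 1.38 over all higher genes. CK 2 was the highest control at all 185 genes, with a median place of 0.611 (quartiles 0.479 and 0.668), and it lay nearer to Cd at 133 of them. The single lower member (structural maintenance of chromosomes protein 3, a cohesin subunit) stayed under 1 FPKM in every library. In edgeR refits of the listed genes, 185 of the 185 passed without CK 2, while leaving out CK 1 left 72 and leaving out CK 3 left 55. The counts were 79, 49 and 81 when Cd 1, Cd 2 or Cd 3 was left out. What set CK 2 apart was not tested.

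The 40 genes of DNA replication had the largest median of the 6 lists, with a median log2 fold change of 2.01 in the authors' deposited table and 20 genes at 4-fold or more. All 6 subunits of the MCM2 to MCM7 helicase, which unwinds DNA at the fork, rose. MCM2 (LOC111912362) had 12.9, 17.1 and 15.3 FPKM in Cd 1 to Cd 3, against 1.12, 4.39 and 1.47 FPKM in CK 1 to CK 3. The log2 fold change was 2.59 ± 0.59 (SE) in the authors' deposited table (DESeq2 adjusted p = 2.0e-04). Even the highest control, CK 2, was below the lowest Cd library by more than the distance among the Cd libraries. MCM5 (LOC111908347) had the largest fold of the 6 subunits, with 9.24, 13.6 and 12.8 FPKM in Cd 1 to Cd 3, against 0.670, 2.81 and 1.04 FPKM in CK 1 to CK 3 and a log2 fold change of 2.87 ± 0.60 (SE) in the authors' deposited table. PCNA, the sliding clamp of DNA polymerase, rose at 3 loci, and the most abundant (LOC111916510) had 21.3, 27.6 and 23.1 FPKM in Cd 1 to Cd 3, against 2.52, 6.79 and 2.43 FPKM in CK 1 to CK 3. The ribonucleotide reductase large subunit (LOC111882479), which makes deoxynucleotides, had 21.1, 27.0 and 23.6 FPKM in Cd 1 to Cd 3, against 3.71, 9.43 and 4.49 FPKM in CK 1 to CK 3. The catalytic subunit of DNA polymerase alpha (LOC111876728), which starts new strands, had the smallest adjusted p of the list, with 2.24, 2.63 and 2.62 FPKM in Cd 1 to Cd 3, against 0.266, 0.652 and 0.362 FPKM in CK 1 to CK 3 (DESeq2 adjusted p = 1.4e-18 in the authors' deposited table). Deoxyuridine triphosphatase (LOC111894849), which keeps uracil out of DNA, had 4.66, 7.48 and 6.94 FPKM in Cd 1 to Cd 3, against 0.427, 0.985 and 0.436 FPKM in CK 1 to CK 3. In the authors' deposited table its log2 fold change was 3.25 ± 0.35 (SE) (DESeq2 adjusted p = 6.9e-18). A related gene outside the list, the MCM-binding protein (LOC111919666), had 7.19, 11.7 and 9.80 FPKM in Cd 1 to Cd 3, against 0.376, 1.51 and 0.584 FPKM in CK 1 to CK 3. CK 2 was the highest control at each of these genes. The Cd and CK libraries did not overlap at any of the 40, which was also so at 795 of all 799 higher genes. Of the 40 calls, 28 held in every one of 10 settings, called refits below. The 10 include a scaling by library totals in place of size factors, which refitted nothing. It only raised each log2 fold change by 0.115, so it could remove lower calls but no higher ones.

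Core histones, which package newly made DNA, rose at 62 loci and fell at none: 13 of H2A, 11 of H2B, 18 of H3 and 20 of H4. Their summed level was 3533, 4838 and 3558 FPKM in Cd 1 to Cd 3, against 876, 2274 and 804 FPKM in CK 1 to CK 3. The CK 2 sum was thus nearer to the lowest Cd sum than to the other controls. The log2 fold changes in the authors' deposited table ran from 1.03 to 2.02 around a median of 1.52, and the median place of CK 2 was 0.658, with 59 of 62 genes nearer to Cd. Of the 62 calls, 2 held in every refit. The member with the smallest adjusted p, an H2B gene (LOC111909452), had 43.6, 48.3 and 36.7 FPKM in Cd 1 to Cd 3, against 15.3, 23.2 and 14.3 FPKM in CK 1 to CK 3. By the authors' deposited table the log2 fold change was 1.17 ± 0.19 (SE) (DESeq2 adjusted p = 1.6e-08). An H4 gene on chromosome 5 (LOC111878177, 5 neighbouring H4 genes rose there) had 59.4, 82.4 and 62.3 FPKM in Cd 1 to Cd 3, against 22.1, 34.9 and 15.8 FPKM in CK 1 to CK 3. Histone copies are nearly identical, so reads of 1 copy may be counted at another and single loci are uncertain. Poly(A) selection captures only histone messages that carry a poly(A) tail.

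Mitosis genes rose at 50 loci, with smaller changes (median log2 fold change 1.19 in the authors' deposited table) and a CK 2 that lay nearer to Cd at 43 of them (median place 0.648). The spindle checkpoint protein MAD2 (LOC111881587) had 21.1, 24.1 and 20.1 FPKM in Cd 1 to Cd 3, against 5.15, 13.5 and 5.77 FPKM in CK 1 to CK 3. Cyclin-dependent kinase B2-2 (LOC111878453), a plant kinase of the entry into mitosis, had 20.7, 24.0 and 19.8 FPKM in Cd 1 to Cd 3, against 5.03, 13.7 and 5.47 FPKM in CK 1 to CK 3. SMC4 of the condensin complex (LOC111885312), which compacts chromosomes, had 6.54, 8.71 and 7.27 FPKM in Cd 1 to Cd 3, against 1.83, 4.45 and 2.16 FPKM in CK 1 to CK 3. This was a log2 fold change of 1.31 ± 0.27 (SE) in the authors' deposited table (DESeq2 adjusted p = 3.5e-05). In all 3 genes CK 2 lay nearer to Cd than to the other controls, and 3 of the 50 calls held in every refit. Outside the list, alpha tubulin (LOC111906810), a subunit of microtubules, had 91.5, 105 and 89.8 FPKM in Cd 1 to Cd 3, against 31.5, 63.9 and 35.0 FPKM in CK 1 to CK 3. Patronus 1 (LOC111918043), which protects centromeric cohesin in Arabidopsis, had 11.5, 12.9 and 10.3 FPKM in Cd 1 to Cd 3, against 2.07, 6.12 and 2.62 FPKM in CK 1 to CK 3.

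Regulators of the G1 to S transition rose at 6 loci: 2 D3 cyclins, 2 E2FA factors and the E2F-like factors E2FE and E2FF. Cyclin-D3-1 (LOC111884853) had 35.8, 44.4 and 34.1 FPKM in Cd 1 to Cd 3, against 8.50, 25.6 and 11.4 FPKM in CK 1 to CK 3. This came to a log2 fold change, in the authors' deposited table, of 1.22 ± 0.47 (SE) (DESeq2 adjusted p = 0.045). CK 2 lay 0.707 of the way to Cd, and the adjusted p was close to the limit. Among 19 higher genes of DNA repair and recombination was KU80 of end joining. The list had a median log2 fold change of 1.47 in the authors' deposited table and levels of a few FPKM at most for all but the chromatin remodeller DDM1. DDM1 (LOC111902962), which maintains DNA methylation in heterochromatin, had 15.8, 20.9 and 16.9 FPKM in Cd 1 to Cd 3, against 5.48, 11.3 and 5.47 FPKM in CK 1 to CK 3. Among 12 higher chromatin genes the DNA methyltransferase 1B (LOC111878393) had 13.3, 17.3 and 14.9 FPKM in Cd 1 to Cd 3, against 5.07, 8.35 and 4.83 FPKM in CK 1 to CK 3. High mobility group B protein 7 (LOC111912377) had 23.5, 28.9 and 24.5 FPKM in Cd 1 to Cd 3, against 5.37, 10.2 and 4.93 FPKM in CK 1 to CK 3. In the authors' deposited table the log2 fold change was 1.20 ± 0.19 (SE) for the methyltransferase and 1.79 ± 0.24 (SE) for the high mobility group protein. The Cd and CK libraries did not overlap at any of these genes, as at 795 of all 799 higher genes.

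None of the 185 higher cell division genes was listed in the same direction in CdSeNP over SeNP. For 35 of them the other tables give values in all 12 libraries, because they were called against CK or Cd in some other pair, so these 35 are a selected subset. Their summed level was 228, 290 and 286 FPKM in CdSeNP 1 to CdSeNP 3, against 266, 284 and 295 FPKM in SeNP 1 to SeNP 3. It was 357, 482 and 376 FPKM in Cd 1 to Cd 3, against 65.2, 164 and 58.3 FPKM in CK 1 to CK 3. CK 1 and CK 3 had the lowest sums of the 12 libraries and CK 2 the next, but all 35 genes were first called higher in Cd than in CK. They were then kept for a call against CK or Cd in some other pair, so this order is partly set by the choice of genes. The SeNP libraries, which had no cadmium, lay within or above the range of CdSeNP. The sum joins parts that differed: 11 histone genes summed to 119, 141 and 143 FPKM in CdSeNP 1 to CdSeNP 3, against 160, 169 and 167 FPKM in SeNP 1 to SeNP 3. In contrast, 15 DNA replication genes summed to 48.4, 68.8 and 65.7 FPKM in CdSeNP 1 to CdSeNP 3, against 48.6, 50.6 and 58.8 FPKM in SeNP 1 to SeNP 3. The histone sums did not overlap between CdSeNP and SeNP, and the replication sums did.

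**Figure D3:**
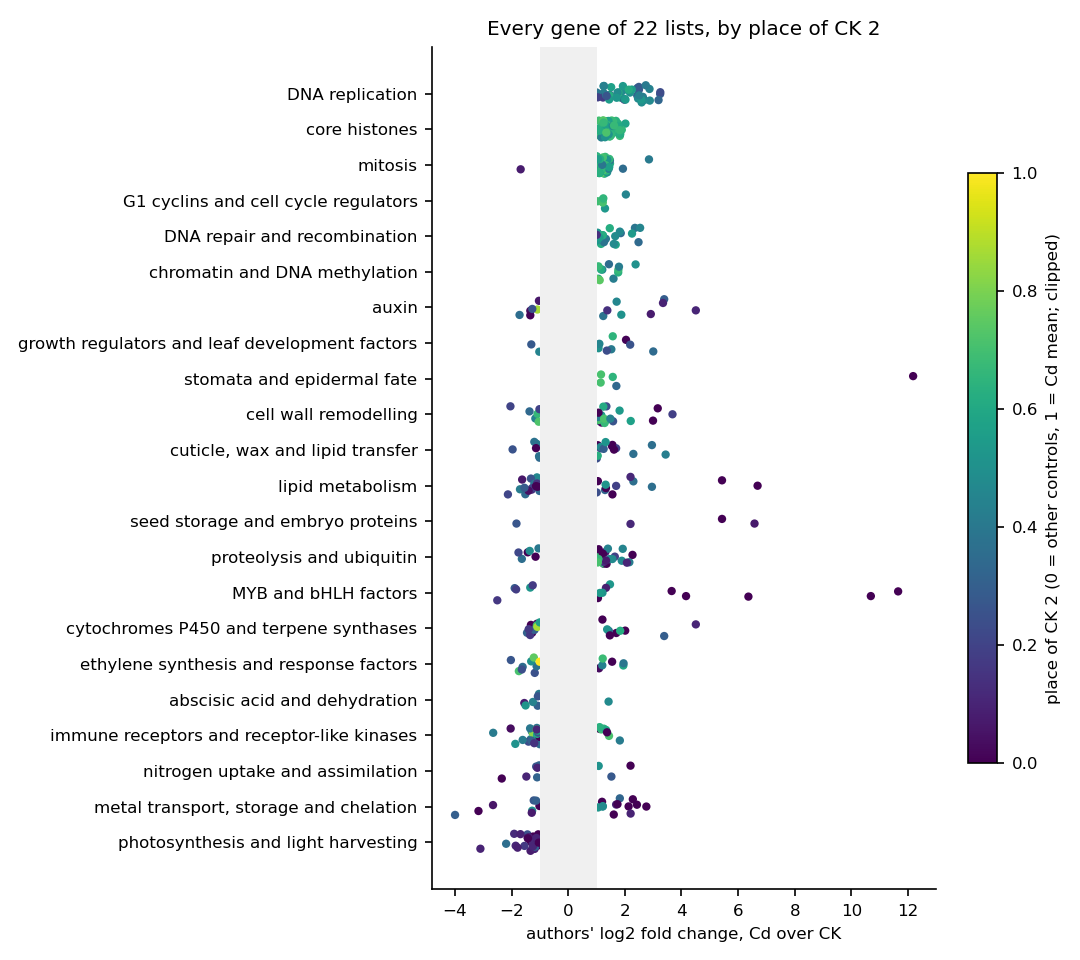
Each point is 1 gene of 22 lists (rows), at its log2 fold change of Cd over CK in the authors' deposited table (x axis) and coloured by the place of CK 2 from 0 (dark, at the other controls) to 1 (yellow, at the Cd mean); vertical scatter within a row has no meaning and the grey band holds no genes by the authors' limit. Higher cell division genes lie between 1.00 and 3.25, mostly in colours of places near 0.6, and a gene with no CK counts is drawn at the authors' fitted value.

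The list of growth and leaf development factors held 9 higher and 2 lower genes, a split near that of the whole table, in which 71.4% of listed genes were higher. GRF1-interacting factor 1 (LOC111916319), a co-activator of cell proliferation in Arabidopsis leaves, had 4.22, 8.28 and 6.26 FPKM in Cd 1 to Cd 3, against 1.02, 1.73 and 1.05 FPKM in CK 1 to CK 3. Its log2 fold change was 2.19 ± 0.31 (SE) in the authors' deposited table (DESeq2 adjusted p = 2.1e-10). CK 2 lay nearer to the other controls here (place 0.26). YABBY 3 (LOC111913890), of a family that specifies the lower leaf side, had 5.79, 6.99 and 5.75 FPKM in Cd 1 to Cd 3, against 2.30, 2.63 and 1.70 FPKM in CK 1 to CK 3. LITTLE ZIPPER 1 (LOC111920883), a small inhibitor of HD-ZIP III factors in Arabidopsis and in no list, had 4.70, 5.16 and 5.26 FPKM in Cd 1 to Cd 3, against 1.66, 1.59 and 1.06 FPKM in CK 1 to CK 3. The 2 lower genes were homeobox-leucine zipper factors: ATHB-12 (LOC111888901), which responds to water deficit in Arabidopsis, had 4.70, 4.07 and 3.35 FPKM in Cd 1 to Cd 3, against 10.1, 7.71 and 9.72 FPKM in CK 1 to CK 3. AINTEGUMENTA-type factors at 3 loci, which keep organs growing in Arabidopsis and which the word search placed among the ethylene-responsive factors, also rose, and AIL1 (LOC111903849) had 15.0, 19.4 and 15.8 FPKM in Cd 1 to Cd 3, against 5.60, 8.997 and 5.51 FPKM in CK 1 to CK 3.

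On the auxin list 8 genes were higher and 6 lower. Among the higher were 2 YUCCA4 genes, whose enzymes make auxin, and 4 GH3 genes, whose enzymes join auxin to amino acids, while YUCCA5 was among the lower. They stayed under 2 FPKM on average, and GH3.1 (LOC111896378) had 1.15, 2.27 and 1.35 FPKM in Cd 1 to Cd 3, against 0.132, 0.182 and 0.118 FPKM in CK 1 to CK 3. The log2 fold change was 3.35 ± 0.43 (SE) in the authors' deposited table (DESeq2 adjusted p = 5.7e-13). Auxin response factor 5 (LOC111882667), which acts in vein and organ formation in Arabidopsis, had 4.85, 7.02 and 5.10 FPKM in Cd 1 to Cd 3, against 1.03, 2.45 and 1.32 FPKM in CK 1 to CK 3. The auxin efflux carrier 1c gene (LOC111882666) had 4.18, 5.16 and 3.72 FPKM in Cd 1 to Cd 3, against 1.46, 2.22 and 1.43 FPKM in CK 1 to CK 3. Aux/IAA repressor genes fell at 2 loci of chromosome 4: IAA6 (LOC111918948) had 4.46, 3.99 and 5.22 FPKM in Cd 1 to Cd 3, against 17.7, 10.1 and 13.5 FPKM in CK 1 to CK 3. IAA15 (LOC111918947) had 5.03, 4.74 and 5.10 FPKM in Cd 1 to Cd 3, against 12.2, 9.46 and 11.2 FPKM in CK 1 to CK 3. PIN-LIKES 7 (LOC111915996), of a family of carriers that hold auxin inside cells, had 30.7, 28.1 and 31.1 FPKM in Cd 1 to Cd 3, against 58.0, 54.8 and 56.5 FPKM in CK 1 to CK 3. In the authors' deposited table its log2 fold change was -1.03 ± 0.09 (SE). CK 2 was between the other controls and Cd at IAA6 and IAA15 and close to the controls at PIN-LIKES 7 (place 0.07).

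The list of stomata and epidermal fate held 5 higher and no lower genes, of which 1 call held in every refit, and a few epidermal genes had large changes. EPIDERMAL PATTERNING FACTOR-like protein 1 (LOC111910137), a secreted peptide, had 18.7, 17.8 and 19.7 FPKM in Cd 1 to Cd 3 and no counts in any CK library, so it was at least 925-fold higher in Cd against a floor of 3 counts over the CK group. Protodermal factor 1 (LOC111914646), a cell wall protein of the outermost cell layer, had 23.2, 33.3 and 24.5 FPKM in Cd 1 to Cd 3, against 1.02, 5.48 and 2.05 FPKM in CK 1 to CK 3. By the authors' deposited table the log2 fold change was 3.14 ± 0.68 (SE) (DESeq2 adjusted p = 8.9e-05). Non-specific lipid-transfer protein 1 (LOC111887989), which carries lipids outside the cell, had 79.9, 163 and 141 FPKM in Cd 1 to Cd 3, against 3.91, 21.4 and 7.57 FPKM in CK 1 to CK 3. This was a log2 fold change of 3.44 ± 0.74 (SE) in the authors' deposited table (DESeq2 adjusted p = 6.6e-05). CK 2 was the highest control at both genes, though still well below every Cd library. SPEECHLESS (LOC111876398), which starts the stomatal lineage in Arabidopsis, had 3.48, 4.44 and 3.18 FPKM in Cd 1 to Cd 3, against 1.00, 2.58 and 1.07 FPKM in CK 1 to CK 3. EPIDERMAL PATTERNING FACTOR-like protein 2 (LOC111909553) had 8.92, 13.4 and 11.2 FPKM in Cd 1 to Cd 3, against 2.48, 7.72 and 3.70 FPKM in CK 1 to CK 3; at both, CK 2 was nearer to Cd than to the other controls. HDG11 (LOC111920938), a homeobox factor of the epidermis, had 1.81, 2.46 and 2.25 FPKM in Cd 1 to Cd 3, against 0.409, 1.24 and 0.382 FPKM in CK 1 to CK 3.

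The cuticle list held 14 higher and 6 lower genes. The higher genes were mainly lipid-transfer proteins and GDSL lipases, such as LOC111886847, a GDSL lipase with 12.6, 25.4 and 24.8 FPKM in Cd 1 to Cd 3, against 1.45, 4.25 and 1.80 FPKM in CK 1 to CK 3 and a log2 fold change of 2.96 ± 0.55 (SE) in the authors' deposited table. The lower genes were mainly enzymes of wax and very long chain lipid synthesis. ECERIFERUM 26 (LOC111905151), which acts in the elongation of wax precursors, had 24.7, 23.1 and 22.9 FPKM in Cd 1 to Cd 3, against 94.0, 65.7 and 93.3 FPKM in CK 1 to CK 3. This came to a log2 fold change, in the authors' deposited table, of -1.96 ± 0.15 (SE) (DESeq2 adjusted p = 1.6e-34). CER3 (LOC111881720), of alkane synthesis, had 8.62, 8.70 and 8.85 FPKM in Cd 1 to Cd 3, against 19.1, 13.9 and 19.3 FPKM in CK 1 to CK 3. An alcohol-forming fatty acyl-CoA reductase (LOC111901415) had 181, 193 and 192 FPKM in Cd 1 to Cd 3, against 468, 318 and 406 FPKM in CK 1 to CK 3. The lowest control was CK 2 in all 3, at places of 0.26, 0.41 and 0.38. A pair of 3-ketoacyl-CoA synthase 20 genes on chromosome 5 moved in opposite directions: LOC111915106 had 5.92, 5.92 and 6.48 FPKM in Cd 1 to Cd 3, against 12.3, 12.7 and 12.1 FPKM in CK 1 to CK 3, and LOC111915107 had 3.74, 4.33 and 4.27 FPKM in Cd 1 to Cd 3, against 1.89, 2.16 and 1.60 FPKM in CK 1 to CK 3. Their reads could be shared if the copies are alike, which was not tested.

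Cell wall remodelling counted 18 higher and 6 lower genes. The 3 listed expansins, which loosen the wall during growth, were higher: expansin-A1 (LOC111888215) had 31.9, 22.5 and 24.6 FPKM in Cd 1 to Cd 3, against 13.7, 10.7 and 7.90 FPKM in CK 1 to CK 3. Its log2 fold change was 1.18 ± 0.21 (SE) in the authors' deposited table (DESeq2 adjusted p = 5.9e-07). Expansin-A15 (LOC111877762) had 2.14, 4.43 and 3.38 FPKM in Cd 1 to Cd 3, against 0.0295, 0.385 and 0.301 FPKM in CK 1 to CK 3. Proline-rich proteins of the DC2.15 type rose at 3 loci, the most abundant being LOC111919370 with 261, 196 and 191 FPKM in Cd 1 to Cd 3, against 118, 73.7 and 92.1 FPKM in CK 1 to CK 3. CK 2 was the lowest control at LOC111919370 and so lay farther from Cd than the other controls (place -0.48). Xyloglucan endotransglucosylase/hydrolase 32 (LOC111897800), which cuts and rejoins xyloglucan chains, had the largest fall of the list, with 9.96, 8.65 and 8.81 FPKM in Cd 1 to Cd 3, against 33.0, 28.2 and 42.4 FPKM in CK 1 to CK 3. The log2 fold change was -2.04 ± 0.17 (SE) in the authors' deposited table (DESeq2 adjusted p = 1.2e-29). Pectinesterase inhibitor 10 (LOC111904046), of a family that holds back pectin de-esterification, had 43.5, 39.0 and 35.8 FPKM in Cd 1 to Cd 3, against 109, 74.4 and 97.0 FPKM in CK 1 to CK 3. Of the 18 higher calls 17 passed with CK 2 left out, and 7 to 9 passed with any other single library left out.

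Lipid metabolism was the largest list in which lower genes outnumbered higher ones outside photosynthesis and receptors, with 15 lower and 12 higher. Fatty acid desaturases account for 10 of the 15: 6 of delta-12 type, 3 of the chloroplast galactolipid delta-7 type and 1 of delta-9 type. One desaturase of the list, stearoyl-ACP 9-desaturase 6 (LOC111876863), rose instead. The delta-9 desaturase 1 (LOC111917517) had 107, 106 and 106 FPKM in Cd 1 to Cd 3, against 320.5, 231 and 304 FPKM in CK 1 to CK 3. In the authors' deposited table its log2 fold change was -1.55 ± 0.14 (SE) (DESeq2 adjusted p = 1.4e-27). A delta-7 desaturase (LOC111913179), which works on monogalactosyldiacylglycerol, the main chloroplast membrane lipid, had 72.3, 70.0 and 70.8 FPKM in Cd 1 to Cd 3, against 212, 144 and 202 FPKM in CK 1 to CK 3. A run of 4 delta-12 desaturase genes of the DES8.11 type on chromosome 3 fell, with LOC111897874 having 7.34, 8.18 and 7.35 FPKM in Cd 1 to Cd 3, against 21.6, 20.7 and 22.6 FPKM in CK 1 to CK 3. The 3 Cd libraries were tightly grouped at these genes and the CK libraries did not overlap with them, as at 307 of all 320 lower genes. All 15 lower genes had a CK 2 nearer to the other controls, and 13 to 15 of the 15 calls passed in refits with 1 library left out. With library totals in place of size factors 11 passed, and 11 held in every refit.

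Among the higher lipid genes were proteins of storage oil. Oleosin L (LOC111905845), which coats lipid droplets, had 57.8, 55.0 and 54.4 FPKM in Cd 1 to Cd 3, against 1.37, 0.795 and 1.401 FPKM in CK 1 to CK 3. By the authors' deposited table the log2 fold change was 5.43 ± 0.21 (SE) (DESeq2 adjusted p = 4.2e-148). Diacylglycerol acyltransferase 3 (LOC111914211), which makes triacylglycerol, had 532, 504 and 518 FPKM in Cd 1 to Cd 3, against 195, 176 and 197 FPKM in CK 1 to CK 3. Glyoxysomal malate synthase (LOC111880531), of the pathway that turns stored oil into sugar, had 21.2, 25.9 and 21.0 FPKM in Cd 1 to Cd 3, against 7.79, 13.6 and 8.73 FPKM in CK 1 to CK 3. Of the seed storage proteins, a vicilin-like gene (LOC111919377) rose with 39.0, 34.2 and 37.6 FPKM in Cd 1 to Cd 3, against 0.249, 0.469 and 0.350 FPKM in CK 1 to CK 3 and the smallest adjusted p of the table (DESeq2 adjusted p = 9.9e-221 in the authors' deposited table), whereas the vicilin Cor a 11 gene (LOC111921670) fell with 46.6, 48.9 and 48.3 FPKM in Cd 1 to Cd 3, against 175, 122.8 and 171 FPKM in CK 1 to CK 3. Relative to the Cd change, CK 2 lay near the other controls at oleosin L and the vicilin-like gene (places -0.10 and 0.07). In FPKM it was the lowest control at oleosin L and the highest at the vicilin-like gene.

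**Figure D4:**
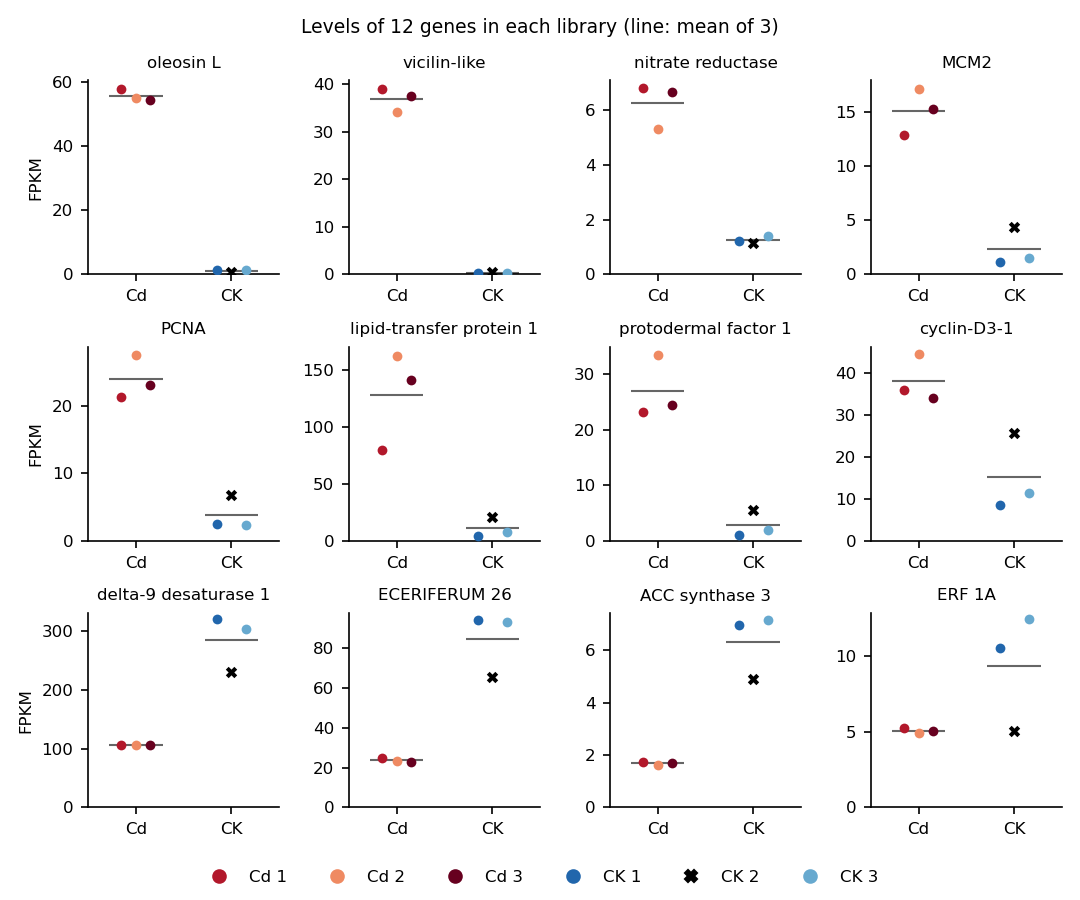
FPKM (y axis, from 0) of 12 genes in the 3 Cd libraries (left) and the 3 CK libraries (right), each point 1 library, the line the mean of 3 and the black cross CK 2. Relative to the Cd level, CK 2 sits near the other controls for oleosin L, the vicilin-like gene and nitrate reductase. It rises above them for MCM2, PCNA and cyclin-D3-1, and lies at the Cd level for ERF 1A.

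Large folds were also found at loci that the authors added to the RefSeq annotation and that carry no gene description. Of 80 such loci, 49 were higher and 31 lower. Of the higher ones, 12 lie within 469 kb of chromosome 5, between bases 238238514 and 238707909, and no other listed gene lies in that stretch. Summed over the 12, there were 5170, 4995 and 4976 counts in Cd 1 to Cd 3, against 20, 27 and 21 counts in CK 1 to CK 3. The most abundant of them had 114, 113 and 117 FPKM in Cd 1 to Cd 3, against 0.1003, 0.352 and 0.205 FPKM in CK 1 to CK 3. Relative to the Cd change, CK 2 lay near the other controls at all 12 (places of -0.10 to 0.044). At 10 of the 12 the CK libraries together held at most 10 counts, so the place could hardly show a departure. All 12 were also listed as higher in CdSeNP over SeNP. Whether these loci are separate genes or pieces of fewer transcripts was not tested.

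Several annotated genes with large changes belong to none of the groups above. The plastid-lipid-associated protein 14 gene (LOC111900455) had 124, 112 and 128 FPKM in Cd 1 to Cd 3, against 15.0, 12.5 and 14.5 FPKM in CK 1 to CK 3. This was a log2 fold change of 3.00 ± 0.11 (SE) in the authors' deposited table (DESeq2 adjusted p = 1.2e-158). The chloroplast chaperone gene dnaJ C76 (LOC111886184) had 118, 113 and 134 FPKM in Cd 1 to Cd 3, against 16.6, 11.5 and 15.4 FPKM in CK 1 to CK 3, and it was 1 of only 2 higher genes on the list of heat shock proteins and chaperones. Glycine-rich protein 5-like (LOC111907682) had 61.7, 113 and 82.0 FPKM in Cd 1 to Cd 3, against 3.31, 18.9 and 5.60 FPKM in CK 1 to CK 3, with CK 2 as the highest control. Of the lower genes, 40S ribosomal protein S19-3 (LOC111884917) had 4.47, 5.84 and 4.30 FPKM in Cd 1 to Cd 3, against 87.1, 34.7 and 20.8 FPKM in CK 1 to CK 3. This came to a log2 fold change, in the authors' deposited table, of -3.41 ± 0.63 (SE); its CK libraries differed by over 4-fold among themselves. Plastidial pyruvate kinase 4 (LOC111888822) had 1.41, 1.43 and 1.23 FPKM in Cd 1 to Cd 3, against 7.37, 7.73 and 8.18 FPKM in CK 1 to CK 3. Its log2 fold change was -2.63 ± 0.14 (SE) in the authors' deposited table (DESeq2 adjusted p = 5.9e-74). The iron-sulfur subunit 2 of succinate dehydrogenase (LOC111908866), of mitochondrial respiration, had 3.41, 2.60 and 2.98 FPKM in Cd 1 to Cd 3, against 12.2, 11.9 and 12.3 FPKM in CK 1 to CK 3. CK 2 lay with the other controls at pyruvate kinase 4 and at this subunit.

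On the list of immune receptors and receptor-like kinases 22 genes fell and 8 rose. In CdSeNP over SeNP this list held 55 higher and 2 lower genes, but mostly other genes. Of the 22 that fell, 2 were listed there as higher and 2 as lower. WRKY and NAC factors had 1 higher and 4 lower genes in Cd over CK, and 23 higher and 0 lower genes in CdSeNP over SeNP. Of those 4 lower genes, 1 was listed there as higher. All genes listed in CdSeNP over SeNP also leaned that way, with 741 higher and 143 lower. The difference between the comparisons was not tested for these lists. Of the 22 calls, 22 passed with CK 2 left out and 11 to 14 with any other single library left out. With library totals in place of size factors 11 passed. Most of the fallers were weakly expressed, and 12 of the 22 reached a mean of 1 FPKM in the higher group. A receptor kinase of the FLS2 type (LOC111890765), which in Arabidopsis binds bacterial flagellin, had 1.21, 1.01 and 1.08 FPKM in Cd 1 to Cd 3, against 3.03, 1.88 and 2.67 FPKM in CK 1 to CK 3. The log2 fold change was -1.33 ± 0.21 (SE) in the authors' deposited table (DESeq2 adjusted p = 3.0e-08). A G-type lectin receptor kinase (LOC111917961) had 10.1, 9.62 and 9.79 FPKM in Cd 1 to Cd 3, against 21.6, 13.8 and 21.4 FPKM in CK 1 to CK 3, with CK 2 nearer to Cd. EIX2-type receptor proteins, which in tomato bind a fungal xylanase, fell at 4 loci. The 8 that rose included 5 with a CK 2 nearer to Cd, such as the FEI 2 gene (LOC111882150), of cell wall signalling in Arabidopsis, with 11.3, 14.7 and 11.8 FPKM in Cd 1 to Cd 3, against 3.51, 7.84 and 3.26 FPKM in CK 1 to CK 3. WRKY70, a regulator of salicylate responses in Arabidopsis, fell at 2 loci, of which LOC111921521 had 21.3, 21.0 and 24.0 FPKM in Cd 1 to Cd 3, against 48.7, 37.8 and 49.7 FPKM in CK 1 to CK 3. In the authors' deposited table its log2 fold change was -1.16 ± 0.14 (SE) (DESeq2 adjusted p = 2.2e-14). Small defence proteins were among the higher genes: defensin SD2 (LOC111918144) had 243, 326 and 276 FPKM in Cd 1 to Cd 3, against 116, 148 and 93.1 FPKM in CK 1 to CK 3. An osmotin-like protein (LOC111902197) had 24.5, 43.8 and 32.3 FPKM in Cd 1 to Cd 3, against 4.30, 12.5 and 4.51 FPKM in CK 1 to CK 3, both higher in Cd.

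On the ethylene list 9 genes fell and 6 rose, and 3 of the risers were the AINTEGUMENTA-like factors named above. 1-aminocyclopropane-1-carboxylate synthase 3 (LOC111900308), of the committed step of ethylene synthesis, had 1.74, 1.63 and 1.71 FPKM in Cd 1 to Cd 3, against 6.96, 4.89 and 7.14 FPKM in CK 1 to CK 3. By the authors' deposited table the log2 fold change was -2.02 ± 0.20 (SE) (DESeq2 adjusted p = 7.2e-21). Of the 9 lower ethylene genes 4 had a CK 2 nearer to Cd, both ERF 1A loci among them. Of the abscisic acid and dehydration list 6 genes fell and 1 rose. In CdSeNP over SeNP the ethylene list held 20 higher and 0 lower genes and the abscisic acid list 21 higher and 0 lower genes. These were mostly other genes: 1 of the 9 lower ethylene genes and 0 of the 6 lower abscisic acid genes were listed there as higher. The difference was again not tested. Few of the lower calls in Cd over CK held in every refit: 3 of 9 on the ethylene list and 1 of 6 on the abscisic acid list. The abscisic acid receptor PYL4 (LOC111879857) had 25.6, 23.2 and 22.5 FPKM in Cd 1 to Cd 3, against 49.6, 36.5 and 47.8 FPKM in CK 1 to CK 3. Dehydrin Xero 2 (LOC111889181), a protein of dehydrated tissue, had 8.78, 8.21 and 7.63 FPKM in Cd 1 to Cd 3, against 18.9, 13.7 and 15.3 FPKM in CK 1 to CK 3. Outside the lists, the dehydration-responsive gene RD22 (LOC111889608) had 30.02, 30.2 and 30.2 FPKM in Cd 1 to Cd 3, against 96.6, 68.1 and 85.1 FPKM in CK 1 to CK 3. This was a log2 fold change of -1.59 ± 0.14 (SE) in the authors' deposited table (DESeq2 adjusted p = 2.9e-27). MAP kinase kinase kinase 18 (LOC111889679), induced by abscisic acid in Arabidopsis, had 2.48, 2.00 and 2.79 FPKM in Cd 1 to Cd 3, against 7.01, 4.52 and 6.67 FPKM in CK 1 to CK 3. CK 2 was the lowest control at PYL4, Xero 2, RD22 and the kinase gene, between the other controls and Cd. The 2 listed jasmonate genes also fell, and neither call held in every refit. Gibberellin 20 oxidase 1 (LOC111904022), of gibberellin synthesis, had 5.14, 5.41 and 5.23 FPKM in Cd 1 to Cd 3, against 10.8, 8.99 and 11.1 FPKM in CK 1 to CK 3. Gibberellin-regulated protein 14 (LOC111891935) had 11.7, 13.4 and 17.0 FPKM in Cd 1 to Cd 3, against 3.81, 5.34 and 3.16 FPKM in CK 1 to CK 3.

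Nutrient and metabolic genes gave smaller groups. Nitrate reductase (LOC111902813), which reduces nitrate to nitrite, rose with 6.82, 5.33 and 6.66 FPKM in Cd 1 to Cd 3, against 1.22, 1.15 and 1.396 FPKM in CK 1 to CK 3. This came to a log2 fold change, in the authors' deposited table, of 2.201 ± 0.17 (SE) (DESeq2 adjusted p = 1.3e-35). Of the remaining nitrogen genes 6 fell and 2 rose, and the fallers included ammonium transporter 1 member 1 (LOC111875863) with 8.87, 8.88 and 8.64 FPKM in Cd 1 to Cd 3, against 17.4, 15.4 and 20.3 FPKM in CK 1 to CK 3. They also included 2 neighbouring nitrate transporter genes of family 1.2 on chromosome 1, while another gene of that family (LOC111910284) rose. Germacrene A synthase (LOC111909135), the first enzyme of the bitter sesquiterpene lactones of lettuce, had 42.95, 46.2 and 47.9 FPKM in Cd 1 to Cd 3, against 95.1, 63.3 and 93.6 FPKM in CK 1 to CK 3, and CK 2 was nearer to Cd there. Its call was lost with the replicate number as a block, at an edgeR log2 fold change of -0.98. On the list of cytochromes P450 and terpene synthases 9 genes rose and 10 fell, so it had no common direction. The word search also placed the YUCCA4 and YUCCA5 genes of the auxin list there, which are described as indole-3-pyruvate monooxygenases. Phenylpropanoids and flavonoids also went both ways, with 5 higher and 4 lower, as did sugar and starch metabolism with 3 higher and 2 lower. The ribosome and translation list was higher at 6 loci and lower at 1, and 1 of the 6 is described as the transcription elongation factor TFIIS. Calcium signalling genes were higher at 2 loci and lower at 5, and glycosyltransferases and acyltransferases higher at 1 and lower at 4. The clock and light signalling list held 4 lower genes, among them LNK1 (LOC111899524), a clock cofactor in Arabidopsis, with 3.70, 3.96 and 3.33 FPKM in Cd 1 to Cd 3, against 12.6, 7.77 and 11.3 FPKM in CK 1 to CK 3. Proteolysis genes numbered 23 higher and 6 lower, also near the split of the whole table, and 11 of the higher ones encode F-box proteins, among them PP2-B15 (LOC111905931) with 39.7, 23.6 and 25.9 FPKM in Cd 1 to Cd 3, against 6.69, 3.79 and 6.51 FPKM in CK 1 to CK 3.

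Lists often linked to cadmium detoxification are given as counts of called genes only. Their numbers of tested members are not known, so no share can be set beside the 4.85% called over all tested genes. Glutathione and thiol redox had 3 higher and 1 lower, peroxidases and other antioxidants 2 higher and 1 lower, and sulfur assimilation and phytochelatins 2 higher. Of the 2 higher genes on the peroxidase and antioxidant list, 1 is described as a nucleobase-ascorbate transporter. Monothiol glutaredoxin-S5 (LOC111900005) had 34.2, 27.9 and 28.2 FPKM in Cd 1 to Cd 3, against 14.7, 10.5 and 12.8 FPKM in CK 1 to CK 3. Its log2 fold change was 1.12 ± 0.17 (SE) in the authors' deposited table (DESeq2 adjusted p = 1.3e-09). Sulfite exporter 3 (LOC111889610) had 5.83, 6.15 and 5.60 FPKM in Cd 1 to Cd 3, against 1.47, 2.59 and 1.50 FPKM in CK 1 to CK 3. Adenylyl-sulfate kinase 3 (LOC111900212), of sulfate activation, had 2.00, 2.14 and 1.92 FPKM in Cd 1 to Cd 3, against 1.09, 0.663 and 1.03 FPKM in CK 1 to CK 3. No listed gene was described as a phytochelatin synthase. A gene that is not listed may have changed by less than 2-fold, may have varied too much between libraries or may have been too weakly expressed to be called. Metal transport, storage and chelation had 13 higher and 8 lower genes and photosynthesis 26 lower, with CK 2 nearer to the other controls (median places of -0.018, 0.172 and 0.0885).

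Markers of cell types were compared as whole lists. Mesophyll markers fell at 22 loci and rose at none, with a summed level of 8140, 7446 and 8120 FPKM in Cd 1 to Cd 3, against 17078, 16369 and 17718 FPKM in CK 1 to CK 3. They include chlorophyll a-b binding proteins, which are also on the photosynthesis list, so this fall is not separate from that of light harvesting. Young leaf and meristem markers rose at 5 loci (2 YABBY genes, GRF1-interacting factor 1 and 2 D3 cyclins) and fell at none, with a summed level of 84.4, 107 and 80.0 FPKM in Cd 1 to Cd 3, against 23.0, 57.1 and 27.8 FPKM in CK 1 to CK 3. The 2 D3 cyclins are also members of the cell division lists and hold most of the young leaf sum, so the 2 sets are not separate. The place of CK 2 was 0.69 at cyclin-D3-2 (LOC111877352) and 0.71 at cyclin-D3-1 (LOC111884853), against 0.26 at GRF1-interacting factor 1 (LOC111916319), 0.23 at YABBY 3 (LOC111913890) and 0.35 at YABBY 5 (LOC111877600). The mesophyll sum of CK 2 lay only slightly below those of the other controls, and the median place of CK 2 over that list was 0.092. Epidermis markers went both ways, with 3 higher and 4 lower genes, and no marker of guard cells, phloem, xylem or trichomes was listed. Whether the leaves compared differed in age or in cell makeup was not tested.

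Neighbouring genes sometimes moved together. In the RefSeq gene order, 13 runs of at least 3 listed genes of 1 direction, at most 2 places apart, were found. Of these runs, 5 hold H2A, H3.2 or H4 genes and 3 hold light-harvesting or Rubisco genes. Of the rest, the 4 desaturases on chromosome 3 fell by 1.32 to 2.13 on the log2 scale, and 3 GOS9 genes on chromosome 9 rose by 1.35 to 2.54 in the authors' deposited table. Such families can share reads between copies.

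The pair CdSeNP and SeNP gave a second view of cadmium in separate libraries. Its table lists 884 genes, 741 higher and 143 lower, of 22862 tested, or 3.24% higher, 0.625% lower and 3.87% either way. The 2 tables share 154 genes, which are 13.8% of the 1119 and 17.4% of the 884. Of these, 135 had the same direction and 19 the opposite one. Higher in both were 69 genes, 8.64% of the 799 and 9.31% of the 741, and lower in both were 66 genes, 20.6% of the 320 and 46.2% of the 143. The shared genes were not spread evenly over the place of CK 2. Of 704 genes whose CK 2 lay nearer to the other controls, 134 (19.0%) were listed in the same direction in CdSeNP over SeNP, and of 415 genes whose CK 2 lay nearer to Cd, 1 (0.241%) was. The place is divided by the Cd change, so it also depends on the size of that change. Large changes were shared more often, at 56 of the 184 genes of 4-fold or more, beside 135 of all 1119. Place and size of change were not separated here. A gene missing from 1 table was not called there, which does not show that its change differed. The difference was not tested across all genes.

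By function, photosynthesis contributed 23 of its 26 lower genes to the shared set, metal transport 12 of 21, and MYB and bHLH factors 6 of 10 higher and 0 of 5 lower genes. The 6 cell division lists contributed 0 of 185. Outside iron and light harvesting, shared genes included oleosin L (LOC111905845), with a log2 fold change of 5.32 in CdSeNP over SeNP, the vicilin-like gene (LOC111919377) with 4.85, nitrate reductase (LOC111902813) with 2.22, diacylglycerol acyltransferase 3 (LOC111914211) with 1.99, ECERIFERUM 26 (LOC111905151) with -1.32 and IAA6 (LOC111918948) with -1.30, all from the authors' deposited table. Among the 184 genes that changed by at least 4-fold in Cd against CK, 56 were listed in the same direction in CdSeNP over SeNP.

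**Figure D5:**
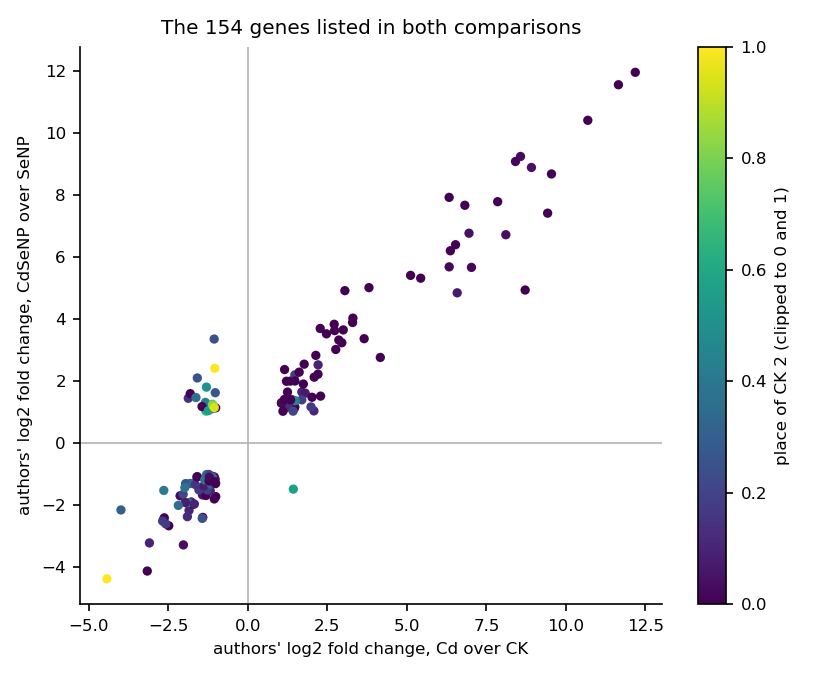
Log2 fold changes from the authors' deposited tables for the 154 genes listed in both comparisons, Cd over CK on the x axis and CdSeNP over SeNP on the y axis, coloured by the place of CK 2. The 135 genes of the same direction lie in the upper right and lower left quadrants, and 18 of the 19 others lie in the upper left, lower in Cd and higher in CdSeNP.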

How the data were processed

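RNA-seq libraries of whole lettuce leaves were grouped by the treatment in the labels. The submitters' processing notes name HISAT2 2.2.1 and StringTie 2.2.1, DESeq2 1.34.0, fastp 0.23.0, and Trimmomatic with no version. Strand setting, genome build and each tool's role are not given in the sources. The authors deposited raw read counts per gene, FPKM computed from them, log2 fold changes, and p-values with adjusted p-values from DESeq2, in tables of called genes only. The authors' calls were used as deposited. Library totals were recovered from the deposited counts and FPKM, and the SE of a log2 fold change from its p-value.

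The listed genes were refitted with edgeR 4.0.16 (quasi-likelihood) and DESeq2 1.42.0 in R 4.3.3, at the raw p of 0.0112 that the authors' adjusted limit implies. These refits cover genes already called, so they cannot add calls, and scripts were tested on simulated data. Deviations of same-numbered Cd and CK libraries correlated at 0.34, 0.55 and 0.18 for numbers 1, 2 and 3 across the listed genes. By the rule that each exceed 0.1 the numbers were taken to pair the samples. However, Cd 1 with CK 3 (0.30) and Cd 3 with CK 1 (0.16) also exceeded 0.1, and 0.30 was above the 0.18 of number 3. Only number 2 was set apart, so the rule cannot show that numbers 1 and 3 pair samples. The replicate block was used in a separate edgeR refit, and the other refits were unpaired.

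Gene lists were made from words in the deposited descriptions, and several words were corrected after the matches were read. Members, lists and tests were chosen with earlier results of these data known. The rule for named genes took the 10 largest described changes in each direction at 5 FPKM or more without overlap, the 3 smallest adjusted p-values per list and direction, and the 5 largest and 5 smallest places of CK 2. Other genes named as examples, such as SPEECHLESS, MCM2, MCM5, MAD2, RD22 and LITTLE ZIPPER 1, were chosen after their values were seen. Of the listed genes, 1039 matched RefSeq by identifier. The p-values measure only the spread between these libraries.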

Additional observations from a re-analysis of the deposited data

Results flagged for a closer look

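For 17 genes the libraries of the 2 groups did not overlap in either comparison, and the direction was opposite in Cd over CK and in CdSeNP over SeNP. The difference between the comparisons was not tested for any of them. In all, 18 genes were lower in Cd over CK and higher in CdSeNP over SeNP, those below included. At 7 of these 18 genes CK 2 lay nearer to Cd than to the other controls, beside 57 of all 320 lower genes. Each pair of values below is a log2 fold change from the authors' deposited table (DESeq2), Cd over CK first and CdSeNP over SeNP second. Only the basic blue protein gene LOC111904155, a small copper protein, was higher in Cd, with 1.43 and -1.497.

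The other 16 were lower in Cd. MLO-like protein 6 (LOC111881099), of a family linked to powdery mildew in barley, had -1.34 and 1.30. The disease resistance protein RUN1 gene (LOC111911860) had -1.11 and 1.22. The ubiquitin ligase PUB23 (LOC111890020), of immune signalling in Arabidopsis, had -1.64 and 1.46. ERF024 (LOC111903275) had -1.31 and 1.80. The receptor kinase genes ZmPK1 (LOC111882463) and At1g05700 (LOC111904657) had -1.12 and 1.24, and -1.02 and 1.13.

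Aldo-keto reductase 4 (LOC111887819) had -1.82 and 1.59, and aldo-keto reductase 2 (LOC111887859) had -1.44 and 1.17. At aldo-keto reductase 2, CK 2 stood far from the other controls, on the side away from Cd (place -1.59). Carotenoid cleavage dioxygenase 4 (LOC111881134) had -1.25 and 1.04, and UDP-glycosyltransferase 87A2 (LOC111885587) had -1.24 and 1.11. The genes without a description were LOC111888345 with -1.14 and 1.10, LOC122198319 with -1.59 and 2.09, LOC111918902 with -1.32 and 1.02, LOC111882742 with -1.03 and 1.62, LOC128126298 with -1.06 and 3.35, and 1 locus added by the authors with -1.88 and 1.44.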

How the results depend on the processing

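The settings below were applied only to genes already called, so their counts give how many calls passed and do not test direction. Counts of higher and lower genes were 665 and 301 by edgeR, 763 and 311 by DESeq2, 638 and 281 at an adjusted p under 0.01, and 699 and 280 at a mean of 1 FPKM or more. Library totals in place of size factors raised every log2 fold change by 0.115 and gave 799 and 227. No p was recomputed and this shift could lose no higher gene, so the 799 was fixed in advance. The shift left 11 of 22 lower immune receptor genes, beside 12 at 1 FPKM or more, and 11 of 15 lower lipid genes. With the replicate block, 796 and 309 passed, no list count moved by over 1.5 times, and the calls of 3 of 129 named genes were lost (syntaxin-121, the ERF 1A gene LOC111905116 and germacrene A synthase), with no other named call changed. For changes of 4-fold or more, the counts were 160 higher, 24 lower, 28 cell division, 4 cell wall, 1 lipid and 2 immune receptor genes, and 50 genes of the same direction in CdSeNP over SeNP.

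Leaving out 1 library gave 332 (without Cd 2) to 777 (without CK 2) higher genes and 200 (without Cd 3) to 311 (without CK 2) lower genes. Without Cd 1, Cd 3, CK 1 and CK 3 the higher genes numbered 449, 415, 424 and 373. Cell division genes ranged from 49 to 185, cell wall genes from 7 to 17, immune receptor genes from 11 to 22 and lipid genes from 13 to 15. Of 129 named genes, 72 kept their call in every one of 10 settings, the shift for library totals included. Depth limits weakly expressed genes, and genes not called cannot be examined here.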
